A study of Homo sapiens with 39 samples.

Results

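Cytosolic RNA was set against ribosome-associated RNA in 3 cultured HBEC lines, human bronchial epithelial cells. The level of each gene in the Cytosol library of a line was divided by its mean level over the 8 libraries of that line's polysome gradient. The comparison took 27 of the 39 libraries of the series, 3 from Cytosol and 24 from gradients, and 21530 gene symbols present in both count tables. One line carried the S34F substitution of U2AF1 (S34F), another a U2AF1 alteration labelled Frame Shift (FS), and the third was wild type (WT). U2AF1 is the small subunit of the factor that binds the 3′ splice site. The labels name no treatment, no clone number and no allele for the frame shift. The Cytosol libraries belong to an RNA immunoprecipitation set, and the gradient libraries come from monosomes, from fractions of 2, 3, 4, 5, 6 and 7 ribosomes and from a fraction of 8 to 10. Each line gave 1 Cytosol library and 1 gradient, so the 3 lines are the only replicates, and the p-values measure the spread between lines of different genotype.

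A gradient sorts cytoplasmic particles by size, and an mRNA that carries more ribosomes sediments further. Cytosolic RNA holds ribosome-bound mRNA together with mRNA in lighter particles and with small structured RNAs that are never translated. RNAs that stay in the nucleus, such as MALAT1 and NEAT1, are usually scarce in both when nuclei are removed intact.

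Levels are given as CPM, the count of a gene scaled to a fixed library total and so keeping no measure of how much RNA a fraction held. Fewer molecules per cell and fewer cells giving them cannot be told apart in such bulk libraries. Cytosol libraries held 8837075 to 29769968 counts and gradient libraries 2442470 to 13387761. A count of 3, the limit that a count of 0 allows for counting error only, corresponded to 0.101 to 0.339 CPM in Cytosol and 0.224 to 1.228 CPM in the gradients. The run lane named in the labels was 3 for every Cytosol library and 8 for every gradient library, so kind of RNA, lane and library set cannot be told apart. The 16 markers of basal airway epithelium, KRT5, ITGB4 and LAMB3 among them, summed to 21400 to 29700 CPM in Cytosol and 10900 to 16500 CPM in pooled polysomal RNA. KRT5 alone gave 18300, 10400 and 8130 CPM in Cytosol of S34F, FS and WT, and KRT15 was listed at 0 in Cytosol of S34F and FS. In the test described below 7 of the 16 were called higher in Cytosol and 3 lower. Of the 13 blood cell markers, 10 to 11 were listed at 0 in Cytosol and 0 in pooled polysomal RNA, with sums of 54.4 to 68.7 CPM in Cytosol and 149 to 228 CPM in pooled polysomal RNA. CD68 gave nearly all of the Cytosol sums, at 68.4, 63.4 and 52.8 CPM in S34F, FS and WT. In polysomal RNA CD68 had 96.2, 89.9 and 135 CPM and LYZ 71.0, 55.9 and 84.9 CPM. LYZ was at 0.285, 0.0672 and 0.113 CPM in Cytosol. Fibroblast and endothelial markers summed to 8.8 to 11.1 CPM in Cytosol and 19.3 to 26.5 CPM in pooled polysomal RNA. Ciliated and secretory markers summed to 508 to 888 CPM in Cytosol, where 8 to 12 of 15 were at 0, and to 325 to 562 CPM in pooled polysomal RNA. Nearly all of these sums came from TUBA1A, at 504, 881 and 642 CPM in Cytosol of S34F, FS and WT and 545, 384 and 301 CPM in polysomal RNA. No other marker of this list reached 10 CPM in a Cytosol library. The part of these markers in the results was not tested.

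Cytosolic and polysomal RNA differed at many genes. With line as a block, edgeR's quasi-likelihood test called 2490 of 17186 genes higher in Cytosol (14.5%) and 3088 lower (18%) at an adjusted p under 0.05. A change of at least 2-fold was seen for 1985 of the higher and 2937 of the lower genes. For 5225 of the 5578 called genes the log2 ratio of CPM had the sign of the fold in all 3 lines. These ratios are scaled by library totals and the fold is not, so a gene can miss this through scaling alone. The lower calls were mostly of genes with few Cytosol counts. A narrower set, chosen after the data were seen, was the 6089 genes at 10 CPM or more in all 6 columns, called well counted below. In it 2203 were higher (36.2%) and 618 lower (10.1%), while the other 11097 genes gave 287 higher and 2470 lower calls. The median fold was -6.60 for 4466 genes at up to 0.5 CPM in Cytosol, -1.15 between 1 and 5 CPM, 0.05 between 10 and 50 CPM and 1.00 for 114 genes above 1000 CPM, a split by one of the compared values that is given as a description. Without the WT line the well-counted genes gave 397 lower calls in place of 618.

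Scaling sets where 0 lies on this axis. Scaling by trimmed means (TMM) adds 0.51 on the log2 scale to each fold compared with scaling by library totals, so a gene with equal CPM in both kinds has a fold of about that size. The median fold of the well-counted genes was 0.46 with TMM and -0.05 with library totals. With library totals 1301 genes were higher and 4555 lower, so the share of higher genes among all calls was 22.2% in place of 44.6%. All 3088 lower calls and 1301 of the 2490 higher calls held under both scalings. Medians of gene lists are therefore read below against 0.46, and a list whose direction turns with the scaling is named as such. With library totals they are to be read against -0.05, so a turn of sign alone does not move a list against the well-counted genes. List medians cover all tested members, also those not well counted, which 0.46 leaves out. Being well counted asks for 10 CPM or more in Cytosol too, so members near absent from Cytosol are left out. Over well-counted members alone the mitotic median was 0.60 in place of -0.06, and that of the microRNA pathway 0.65 in place of -0.15. The core spliceosome had 1.33 in place of 0.76 and small structured RNAs 0.24 in place of -0.82. For glycolysis it moved only from 1.48 to 1.51.

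**Figure D1:**
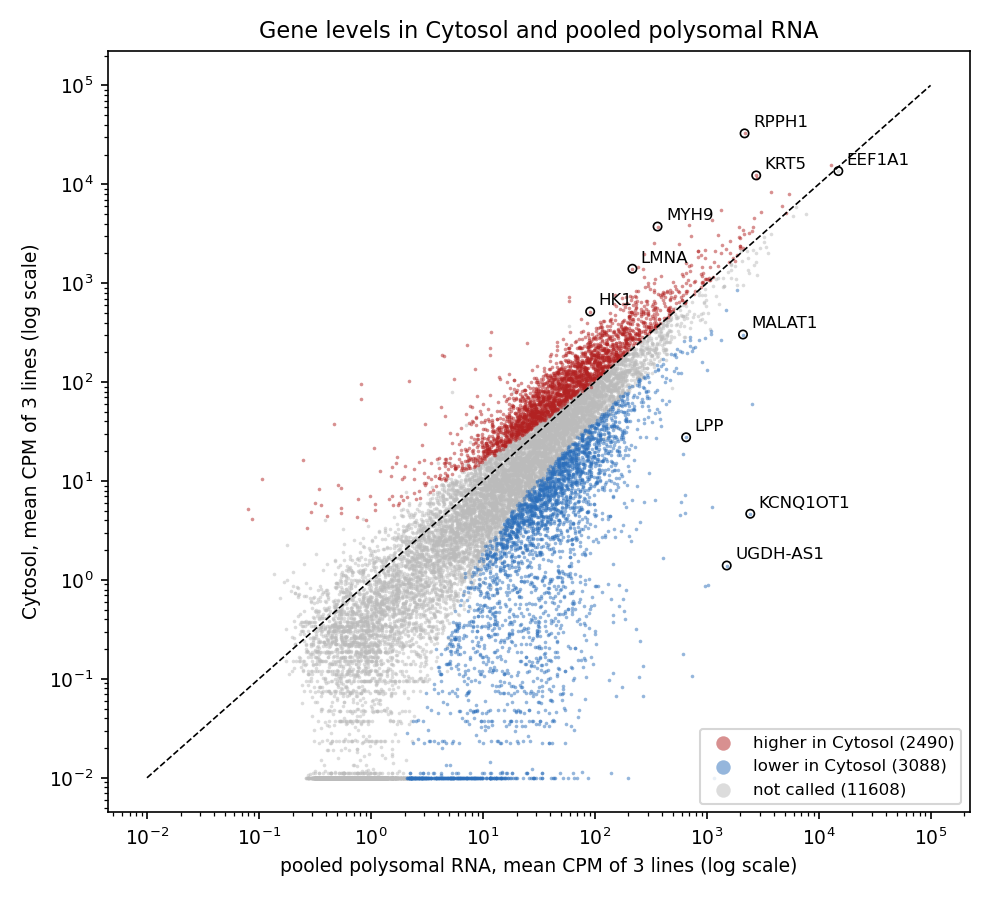
Mean CPM over 3 lines in Cytosol (vertical, log scale) against pooled polysomal RNA (horizontal, log scale) for 17186 genes, with values under 0.01 CPM drawn at 0.01 and the dashed line marking equal CPM. Red points were higher in Cytosol (2490) and blue points lower (3088) by edgeR's quasi-likelihood test, grey points were not called, and the blue cloud widens below 10 CPM in Cytosol.

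mRNAs of enzymes and particles that work in the cytosol were among the groups towards Cytosol. Of 25 tested mRNAs of glycolysis and the pentose phosphate pathway, 21 were higher and 0 lower, with a median log2 fold of 1.48. The shares of higher calls to set this against are the 14.5% of all genes tested and the 36.2% of well-counted genes. HK1, the hexokinase that commits glucose to glycolysis, stood at 503, 515 and 532 CPM in Cytosol of S34F, FS and WT, against 99.0, 98.6 and 75.5 CPM in pooled polysomal RNA. All 3 Cytosol values lay above all 3 polysomal values, and the fold was 3.07 ± 0.22 (SE, adjusted p = 2.0e-05). TALDO1, transaldolase, rose by 2.15 ± 0.21 (SE), with 282, 254 and 262 CPM in Cytosol and 98.1, 79.0 and 88.9 CPM in polysomal RNA. PKM, which makes pyruvate, had 2680, 3170 and 3300 CPM in Cytosol and 1180, 1130 and 1430 CPM in polysomal RNA. None of these enzymes had overlapping groups. GAPDH, of the same pathway, rose by 1.14 ± 0.15 (SE, adjusted p = 4.58e-04), with 8590, 7590 and 7970 CPM in Cytosol and 6080, 4440 and 5740 CPM in polysomal RNA. Lactate dehydrogenase LDHA was not called, at 0.70 (adjusted p = 0.0606). With library totals 18 of the 25 remained higher, and with each line left out 18 to 22 were.

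Subunits of the proteasome, the complex that degrades tagged proteins, behaved alike, with 21 of 31 higher, 0 lower and a median fold of 1.38. PSMD2, a scaffold of the regulatory cap, had 476, 628 and 751 CPM in Cytosol of S34F, FS and WT and 156, 212 and 199 CPM in polysomal RNA, a fold of 2.25 ± 0.21 (SE, adjusted p = 6.06e-05). The groups did not overlap for PSMD2. PSMA7, of the catalytic core, rose by 2.24 ± 0.23 (SE), while PSMB2 of the same core was not called at -0.16 (adjusted p = 0.586). Without WT 16 proteasome mRNAs were called higher.

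Cytosolic and mitochondrial chaperones gave 19 of 28 higher and 0 lower, with a median of 1.48. CCT7, a subunit of the ring that folds actin and tubulin, had 353, 396 and 413 CPM in Cytosol and 121, 109 and 110 CPM in polysomal RNA, a fold of 2.33 ± 0.21 (SE). HSPA1A, the stress-induced HSP70, rose by 2.46 ± 0.27 (SE, adjusted p = 1.58e-04). HSPA8, its constitutive relative, had 216, 259 and 270 CPM in Cytosol and 253, 394 and 94.7 CPM in polysomal RNA, and the groups overlapped (adjusted p = 0.151). Of 20 aminoacyl-tRNA synthetases, which load tRNAs with amino acids, 11 were higher and 0 lower, with a median of 1.26. AARS, the alanine enzyme, led them at 2.44 ± 0.21 (SE, adjusted p = 4.04e-05), and QARS, the glutamine enzyme, was not called at 0.39. These 4 lists kept positive medians of 0.76 to 0.98 with library totals.

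mRNAs of long cytoskeletal linkers had the highest median of the lists tested. Of 26 long linkers, 18 were higher and 2 lower, with a median of 1.74. MYH9, the heavy chain of nonmuscle myosin on chromosome 22, had 3480, 3860 and 3870 CPM in Cytosol of S34F, FS and WT and 466, 388 and 238 CPM in polysomal RNA. Its lowest Cytosol value was far above its highest polysomal value, and the fold was 3.97 ± 0.25 (SE, adjusted p = 9.27e-06). PLEC, which ties keratin filaments to junctions, rose by 3.07 ± 0.23 (SE), and FLNA, an actin crosslinker, by 2.62 ± 0.20 (SE). DST, a relative of plectin, was not called, with 90.2, 79.4 and 44.8 CPM in Cytosol and 208, 160 and 46.7 CPM in polysomal RNA. LMNA, the A-type lamin of the nuclear envelope, had 1220, 1560 and 1430 CPM in Cytosol and 247, 178 and 224 CPM in polysomal RNA, a fold of 3.26 ± 0.22 (SE), and was named after its values were seen. ACTB, cytoplasmic actin, rose by 1.68 ± 0.20 (SE), at 5270, 11000 and 8940 CPM in Cytosol and 3590, 4190 and 3370 CPM in polysomal RNA.

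Keratins, the intermediate filaments of epithelium, were called in both directions and more often higher in Cytosol. Of 19 tested, 10 were higher and 4 lower, with a median of 1.32. Among the 10 well-counted keratins 8 were higher and 0 lower, with a median of 2.29, so the 4 lower calls lay outside that set. The set asks for 10 CPM or more in Cytosol of every line. A keratin near absent from Cytosol therefore cannot enter it, and this split is a description only. KRT5, the basal cell keratin, had 18300, 10400 and 8130 CPM in Cytosol and 4040, 2920 and 1360 CPM in polysomal RNA, a fold of 2.76 ± 0.19 (SE, adjusted p = 1.6e-05). KRT6A, KRT6B and KRT6C, which share most of their sequence and whose reads the counting could split, rose by 2.55, 3.42 and 3.51. KRT19 had 0 CPM in Cytosol of each line but stood at 1760, 963 and 787 CPM in polysomal RNA of S34F, FS and WT. Since well-used genes are also listed at 0 in single libraries, as CALR was in FS Cytosol, KRT19 is given with no fold.

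**Figure D2:**
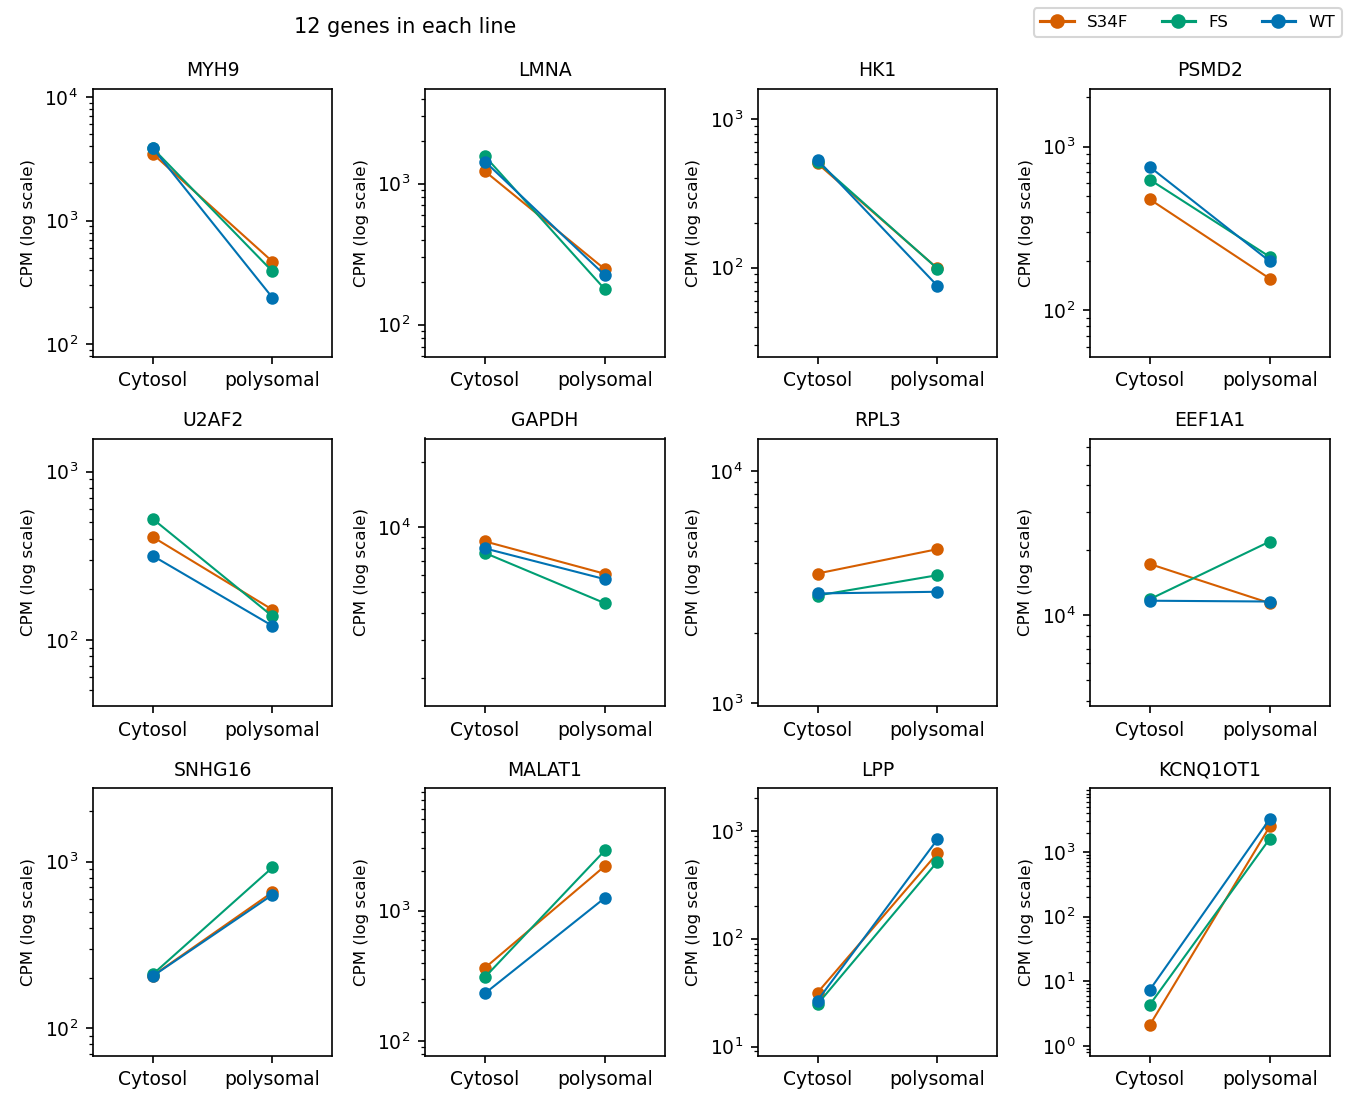
CPM (log scale) of 12 genes in Cytosol, left, and pooled polysomal RNA, right, with 1 point per line and kind and points of a line joined. MYH9, LMNA, HK1, PSMD2, U2AF2 and GAPDH were higher in Cytosol in every line, RPL3 and EEF1A1 overlapped or lay close, and SNHG16, MALAT1, LPP and KCNQ1OT1 were lower in Cytosol in every line.

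mRNAs of the translation machinery lay near the middle of the well-counted genes. Of 46 large-subunit ribosomal proteins, 20 were higher and 1 lower with a median of 0.48, and of 32 small-subunit proteins 11 were higher and 1 lower with a median of 0.34. With library totals the medians turned to -0.02 and -0.16, with 5 higher and 7 lower for the large and 2 higher and 7 lower for the small subunit. Without S34F, 12 large-subunit mRNAs were called higher, and without S34F or without WT 7 small-subunit mRNAs were. RPL8 had 5180, 4090 and 4400 CPM in Cytosol of S34F, FS and WT and 3340, 2050 and 2560 CPM in polysomal RNA, a fold of 1.36 ± 0.16 (SE, adjusted p = 2.42e-04). RPL3 had 3620, 2910 and 2970 CPM in Cytosol and 4610, 3560 and 3020 CPM in polysomal RNA, and was not called (adjusted p = 0.147). RPS28 moved against its group, with 334, 272 and 225 CPM in Cytosol, all below 1140, 793 and 965 CPM in polysomal RNA, a fold of -1.25 ± 0.20 (SE, adjusted p = 0.0012). Ribosomal protein genes have many near-identical processed copies, so their counts may be split.

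Among 43 translation factors, 16 were higher and 2 lower, with a median of 0.42. With library totals the median turned to -0.09, with 12 higher and 7 lower. Without S34F 6 were lower and without WT 4. EIF3B and EIF4G1, scaffolds of initiation, rose by 2.60 ± 0.26 and 2.26 ± 0.23 (SE). EIF6, which keeps the large subunit from joining, had 465, 530 and 539 CPM in Cytosol and 186, 155 and 268 CPM in polysomal RNA, a fold of 1.93 ± 0.22 (SE). EEF1A1, which brings tRNAs to the ribosome, was not called, at 17300, 11900 and 11700 CPM in Cytosol and 11400, 22000 and 11600 CPM in polysomal RNA (adjusted p = 0.179). The FS line had the highest polysomal value and the groups overlapped. EEF1G was not called either, at 0.04.

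Among mRNAs of nuclear-encoded mitochondrial proteins, the respiratory chain lay near the well-counted genes as a whole. Of 75 mitochondrial ribosomal proteins 37 were higher and 1 lower, with a median of 0.77, and of 76 respiratory chain subunits 30 were higher and 4 lower, with a median of 0.45. With library totals 21 mitochondrial ribosomal protein mRNAs were higher and 3 lower, and the median was 0.26. MRPL28 had 190, 190 and 192 CPM in Cytosol and 47.4, 34.5 and 54.5 CPM in polysomal RNA, a fold of 2.65 ± 0.24 (SE, adjusted p = 6.34e-05). UQCRC1, a core subunit of complex III, rose by 2.50 ± 0.20 (SE), and ATP5B, the catalytic subunit of ATP synthase, by 2.34 ± 0.20 (SE). COX7C, a small subunit of cytochrome oxidase, was not called at -0.59 (adjusted p = 0.0621). With library totals the respiratory list gave 17 higher and 17 lower and a median of -0.06, and without FS it gave 27 higher and 11 lower. No mitochondrially encoded mRNA of the list was among the shared symbols.

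Several splicing factors were higher in Cytosol, to be set beside 14.5% higher of all genes tested and 36.2% of well-counted genes. Of 38 core spliceosome mRNAs 17 were higher and 4 lower, with a median of 0.76. Of 18 factors of the 3′ splice site 8 were higher and 0 lower, with a median of 0.59. These 8 were among 17 well-counted members, whose median was 0.61 beside 0.46 for all well-counted genes. With library totals the core spliceosome gave 13 higher and 7 lower with a median of 0.26, and the 3′ splice site factors 5 higher and 1 lower with a median of 0.08. U2AF2, the large partner of U2AF1, had 409, 524 and 316 CPM in Cytosol of S34F, FS and WT and 151, 138 and 121 CPM in polysomal RNA. All Cytosol values were the higher ones, and the fold was 2.14 ± 0.22 (SE, adjusted p = 1.1e-04). SF3B2, of the U2 particle, rose by 2.94 ± 0.23 (SE), PUF60, a U2AF2 relative, by 2.38 ± 0.23 (SE), and PRPF8, the core of the catalytic centre, by 2.60 ± 0.23 (SE). U2AF1 itself had 21.4, 54.7 and 53.9 CPM in Cytosol and 24.3, 57.7 and 44.2 CPM in polysomal RNA. Its groups overlapped and it was not called, at 0.57 ± 0.26 (SE, adjusted p = 0.132). Of 22 hnRNP mRNAs 12 were higher and 1 lower, with HNRNPM at 3.06 ± 0.30 (SE), and with library totals 8 were higher and 1 lower. Of 18 SR protein mRNAs 4 were higher and 2 lower. The 14 well-counted SR protein mRNAs had a median of 0.28, below that of all well-counted genes. SRSF4 rose by 2.39 ± 0.28 (SE), SRSF10 fell by 1.89 ± 0.30 (SE), and the list median of 0.12 turned to -0.39 with library totals. Without WT, 1 SR protein mRNA was called higher.

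mRNAs of secreted and membrane proteins, which are translated at the endoplasmic reticulum (ER), lay near the middle of the well-counted genes. Those of ER folding and translocation lay below it. Of 53 mRNAs of secreted and membrane proteins 22 were higher and 4 lower with a median of 0.48, and of 32 mRNAs of ER folding and translocation 6 were higher and 8 lower with a median of 0.14. FN1, fibronectin, had 5100, 6650 and 4140 CPM in Cytosol and 3290, 4140 and 1750 CPM in polysomal RNA, a fold of 1.41 ± 0.18 (SE, adjusted p = 3.63e-04). The FS polysomal value equalled the WT Cytosol value at 4140 CPM, while within every line Cytosol was higher. SSR3, a subunit of the translocon-associated complex, had 70.6, 66.8 and 61.3 CPM in Cytosol and 300.0, 507 and 392 CPM in polysomal RNA, a fold of -2.01 ± 0.25 (SE). DSC3, a desmosomal cadherin, fell by 2.05 ± 0.29 (SE), and P4HB, protein disulfide isomerase, rose by 1.26 ± 0.19 (SE). With library totals both medians turned negative, at -0.02 and -0.37, beside -0.05 for the well-counted genes. The secreted and membrane list then gave 10 higher and 13 lower. Without S34F this list gave 17 higher and 6 lower, and without WT 15 higher and 7 lower.

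Nuclear noncoding RNAs were mostly lower in Cytosol. Of 14 tested nuclear noncoding RNAs, 10 were lower in Cytosol and 1 higher, with a median of -1.77 against -0.82 over all genes tested. MALAT1, which localizes to nuclear speckles, had 365, 310 and 233 CPM in Cytosol of S34F, FS and WT and 2190, 2880 and 1250 CPM in polysomal RNA, a fold of -2.18 ± 0.22 (SE, adjusted p = 9.92e-05). NEAT1, the scaffold of paraspeckles, had 130, 189 and 93.5 CPM in Cytosol and 725, 618 and 238 CPM in polysomal RNA, a fold of -1.28 ± 0.25 (SE, adjusted p = 0.00382). For MALAT1 and NEAT1, every Cytosol value was below every polysomal value. DLEU2, the host of a microRNA cluster, was at 1.71, 0.722 and 0.878 CPM in Cytosol and 59.4, 50.2 and 71.4 CPM in polysomal RNA. KCNQ1OT1, the long antisense RNA of an imprinted region on chromosome 11, had 2.14, 4.40 and 7.47 CPM in Cytosol and 2490, 1610 and 3250 CPM in polysomal RNA. Its fold was -8.55 ± 0.39 (SE, adjusted p = 3.82e-06). Use of strand in the counting is not given in the sources used here, so reads of an antisense RNA and of its partner gene cannot be told apart.

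Of 15 host genes of snoRNAs, whose spliced RNAs are mostly degraded by translation-dependent decay, 5 were lower and 0 higher. Lower calls took 18% of all genes tested and 10.1% of well-counted genes. The host median of -0.67 was close to that of all genes tested (-0.82) and below that of well-counted genes (0.46). SNHG16 had 206, 210 and 205 CPM in Cytosol and 655, 922 and 632 CPM in polysomal RNA, a fold of -1.25 ± 0.21 (SE). GAS5 fell by 1.34 ± 0.25 (SE), and ZFAS1 was not called at -0.67 (adjusted p = 0.119). With library totals 9 hosts were lower. Without WT 3 were, and without S34F 8 were.

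Small structured RNAs were mixed, with 1 higher and 3 lower of 11, beside 14.5% higher and 18% lower of all genes tested. RPPH1, the RNA of RNase P on chromosome 14, had 31300, 43600 and 23200 CPM in Cytosol and 2710, 1330 and 2510 CPM in polysomal RNA, a fold of 4.47 ± 0.33 (SE, adjusted p = 2.13e-05). RMRP, the related RNA of RNase MRP, had 5680, 6500 and 5510 CPM in Cytosol and 6390, 5470 and 6880 CPM in polysomal RNA, and was not called (adjusted p = 0.0522). Both were highest among gradient fractions in monosomes. RPPH1 had 10000, 5720 and 10300 CPM there in S34F, FS and WT. RMRP had 21800, 25200 and 27800 CPM in the same fraction, above its Cytosol level in every line. The small Cajal body RNAs SCARNA10, SCARNA5 and SCARNA7 fell by 1.90, 1.90 and 2.15. Without S34F neither SCARNA5 (-1.45) nor SCARNA7 (-1.72) was called, and SCARNA10 was the only 1 of the 3 that kept its call with each line left out.

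**Figure D3:**
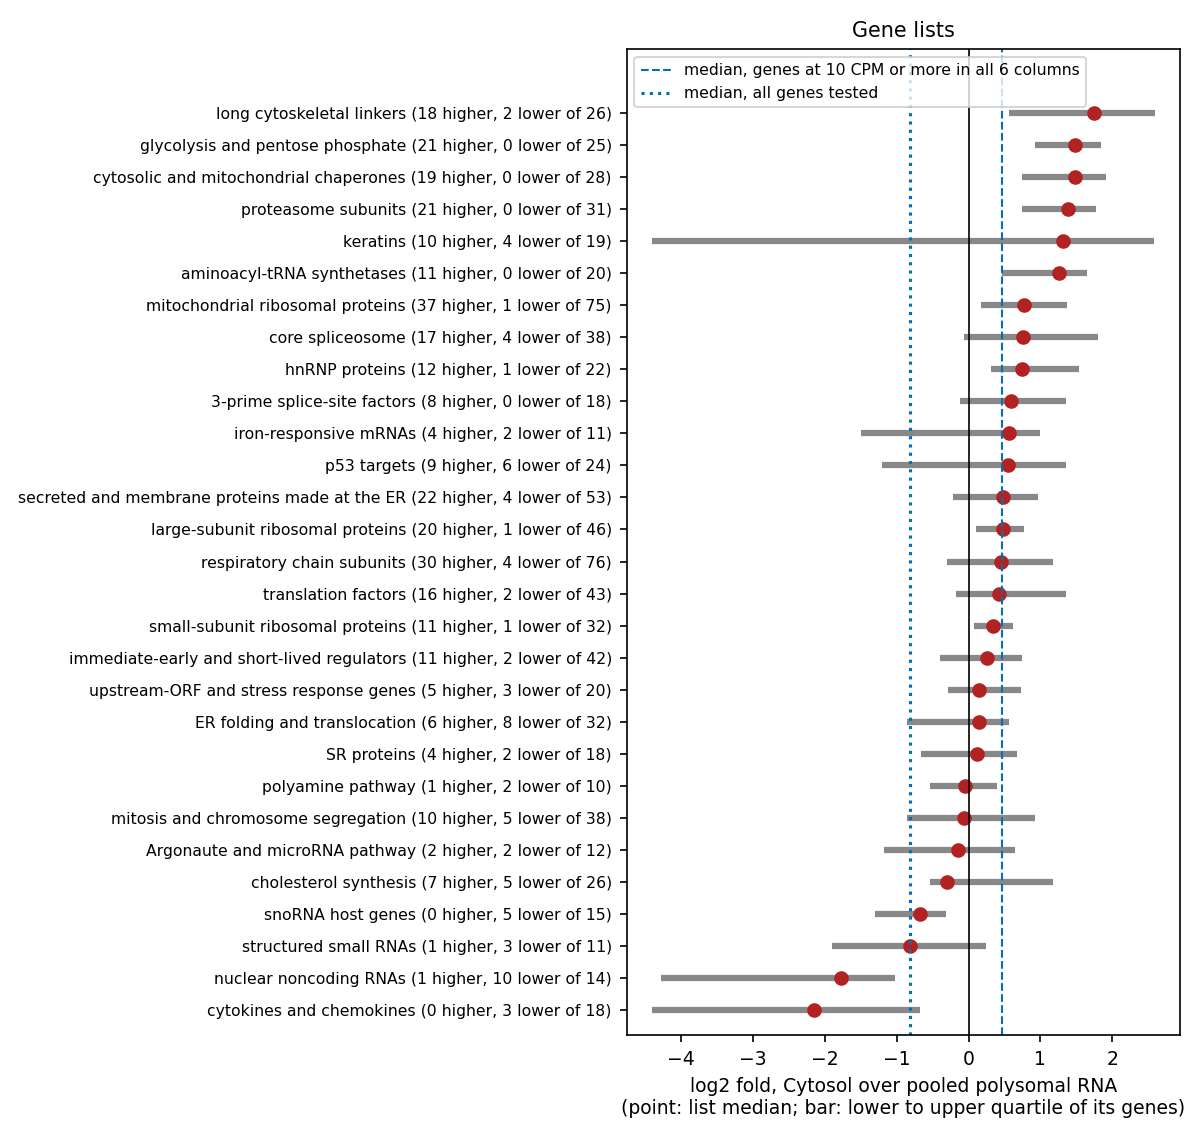
Median log2 fold of Cytosol over pooled polysomal RNA (points) with the lower to upper quartile over the tested genes (bars) for 29 gene lists. The dashed line is the median of the 6089 well-counted genes (0.46), the dotted line that of all genes tested (-0.82), and cytoskeletal linkers (1.74) and nuclear noncoding RNAs (-1.77) lie on opposite sides.

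Regulators and small pathways were mixed. Their counts are to be set beside 14.5% higher and 18% lower of all genes tested. Of well-counted genes 36.2% were higher and 10.1% lower. Of 42 immediate-early and short-lived mRNAs 11 were higher and 2 lower. EREG, an EGF family ligand, was among the lower ones with 36.8, 90.3 and 64.6 CPM in Cytosol of S34F, FS and WT and 213, 683 and 498 CPM in polysomal RNA, a fold of -2.24 ± 0.22 (SE, adjusted p = 9.26e-05). JUNB, a subunit of AP-1, was among the higher ones at 1.40 ± 0.20 (SE). Without WT, 6 of this list were higher, and with library totals 4 were higher and 9 lower. Of 24 p53 targets 9 were higher, SFN among them at 1.70 ± 0.18 (SE), and 6 lower, ZMAT3 among them at -2.98 ± 0.35 (SE). MDM2, the ligase that limits p53, had 120, 144 and 134 CPM in Cytosol and 800.0, 1610 and 620 CPM in polysomal RNA, a fold of -2.25 ± 0.27 (SE, adjusted p = 2.39e-04). Of 20 mRNAs with known upstream reading frames or stress roles, 5 were higher and 3 lower, with MDM2 and PPP1R15B (-2.03) among the lower, and ATF4, the stress transcription factor, was not called at 0.05. Of 38 mitotic mRNAs 10 were higher and 5 lower, with CDC20 at 2.06 ± 0.27 (SE) and ECT2 at -3.27 ± 0.32 (SE). Of 26 cholesterol synthesis mRNAs 7 were higher and 5 lower, with LSS, lanosterol synthase, at 2.01 ± 0.23 (SE), SC5D, a late desaturase, at -4.46 ± 0.33 (SE) and MSMO1, a sterol oxidase, at -2.38 ± 0.32 (SE). With library totals the medians of the immediate-early, p53, upstream reading frame, mitotic and cholesterol lists were -0.26, 0.05, -0.36, -0.56 and -0.80. The balance of calls then turned to 6 higher and 8 lower for the p53 targets, 6 higher and 8 lower for the mitotic list, 5 higher and 9 lower for the cholesterol list and 2 higher and 5 lower for the upstream reading frame list. Without WT 6 mitotic mRNAs were called higher, and without S34F 3 upstream reading frame mRNAs were higher and 3 cholesterol mRNAs lower. Without WT 4 p53 targets were lower.

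Of 11 iron-responsive mRNAs 4 were higher and 2 lower with a median of 0.57, and with library totals 1 was higher and 3 lower with a median of 0.06. FTL, ferritin light chain, rose by 0.82 ± 0.19 (SE) with TMM while library totals gave 0.32 (adjusted p = 0.217) and leaving out WT ended its call at 0.72. Leaving out WT left 2 iron-responsive mRNAs higher and 3 lower, and leaving out FS 6 higher. The polyamine and microRNA lists are to be set beside the 14.5% higher and 18% lower of all genes tested. The polyamine list gave 1 higher and 2 lower of 10, with AMD1 at -2.18 ± 0.39 (SE). The microRNA pathway gave 2 higher and 2 lower of 12, with DICER1 at -1.93 ± 0.46 (SE). The 2 higher calls, XPO5 and TARBP2, were lost without WT at 0.84 and 0.86 and with library totals at 0.50 and 0.41. With library totals this list gave 0 higher and 3 lower, without FS 4 higher and 1 lower, and without S34F 3 lower. Among 18 cytokines and chemokines 0 were higher and 3 lower, beside 18% lower of all genes tested, with a median of -2.15 that becomes -1.41 with genes at 0 in Cytosol set to 3 counts. Without WT 1 was lower, without FS 5 and with library totals 5. CCL5 had 0.0714, 1.31 and 0.566 CPM in Cytosol and 176, 135 and 223 CPM in polysomal RNA, whereas IL1B overlapped with 101, 159 and 374 CPM in Cytosol and 107, 126 and 555 CPM in polysomal RNA. Of the remaining genes looked up in every comparison, NPM1 was not called at 0.43 ± 0.23 (SE, adjusted p = 0.17), and CXCL8 was under 5 CPM in every column. The replication-dependent histone list had no shared symbol.

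The largest increases by fold included symbols with close relatives. The 12 largest, from 4.49 for ANXA2P3 to 7.46 for FLJ44635, included the pseudogenes RPL31P11, ANXA2P1, YBX3P1 and RPS18P9 and the actin relatives ACTA1 and POTEF. POTEF had 132, 208 and 207 CPM in Cytosol and 4.49, 3.75 and 5.33 CPM in polysomal RNA. TAPT1-AS1, an antisense RNA, had 175, 231 and 154 CPM in Cytosol and 4.94, 4.21 and 3.84 CPM in polysomal RNA. Reads of such copies and antisense RNAs can belong to the parent or overlapping gene, so these folds are uncertain. Over all 360 tested symbols of pseudogene form, 60 were higher and 78 lower, with a median of -0.85. As shares, both lay near the 14.5% higher and 18% lower of all genes tested, whose median was -0.82.

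The largest decreases were of symbols close to absent from Cytosol. Of the 12 largest, 7 had 3 counts or fewer in every Cytosol library, which leaves their folds without a defined size, and UGDH-AS1 on chromosome 4 was the only one over 3 counts in all of them. UGDH-AS1 had 1.78, 0.84 and 1.58 CPM in Cytosol of S34F, FS and WT and 1530, 980 and 2010 CPM in polysomal RNA, a fold of -9.51 ± 0.29 (SE, adjusted p = 6.21e-07). SHISA9 had 0.0728, 0.00202 and 2.60 CPM in Cytosol and 1020, 696 and 1370 CPM in polysomal RNA, and ABCC9, a subunit of potassium channels, 0.214, 0.0336 and 2.38 CPM in Cytosol and 951, 668 and 1260 CPM in polysomal RNA. The groups did not overlap for any of these, which largely follows from their being picked by fold. The Cytosol levels of SHISA9 and ABCC9 were at or under 3 counts in S34F and FS. Of 1784 tested genes listed at 0 in all Cytosol libraries, 131 averaged 5 CPM or more in polysomal RNA and 7 averaged 50 CPM or more, with KRT19, TMEM212, GSG1, ROR1-AS1 and LPAL2 among them.

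A set of 241 genes, chosen on these values, was under 1 CPM in every Cytosol library and at 20 CPM or more in every pooled column. It made up 0.004 to 0.005% of Cytosol counts, and 2.15 to 2.81% of counts in monosomes, 1.16 to 3.89% in the fraction of 4 ribosomes and 0.651 to 0.84% in the fraction of 8 to 10. Its genes peaked together in the same fractions. In S34F 205 of the 241 were highest in monosomes and 34 in fraction 4, in FS 230 were highest in monosomes, and in WT 222 were highest in fraction 4. Well-counted genes were most often highest in the fraction of 8 to 10, at 40.2%, 36.1% and 37.0% in S34F, FS and WT, and 7.1%, 11.7% and 7.7% of them were highest in fraction 4. KCNQ1OT1 was also highest in monosomes in FS and in fraction 4 in WT, while in S34F fraction 4 was above monosomes, with 4730, 4200 and 3570 CPM in monosomes and 5050, 1150 and 8390 CPM in fraction 4 of S34F, FS and WT.

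Some well-counted mRNAs were also far lower in Cytosol, and the following were picked after their values were seen as having the largest decreases among genes at 10 CPM or more in all columns. LPP, a focal adhesion protein, had 31.6, 24.7 and 26.7 CPM in Cytosol and 619, 516 and 830 CPM in polysomal RNA, a fold of -3.99 ± 0.25 (SE, adjusted p = 8.65e-06). LPP peaked in the same fractions as KCNQ1OT1. It had 1110, 1080 and 895 CPM in monosomes and 1120, 391 and 2000 CPM in fraction 4 of S34F, FS and WT. The part of this shared peak in its fold was not tested. HOOK3, a dynein adaptor, was at -3.49 ± 0.26 (SE), MDM4, a relative of MDM2, at -3.15 ± 0.29 (SE), and ATF6, an ER stress sensor, at -2.72 ± 0.26 (SE). ARPP19, a regulator of a mitotic phosphatase, had 30.6, 23.0 and 27.5 CPM in Cytosol of S34F, FS and WT and 242, 555 and 268 CPM in polysomal RNA. YES1, a kinase of the SRC family, had 12.1, 13.7 and 17.5 CPM in Cytosol and 117, 180 and 155 CPM in polysomal RNA. For each of these the highest Cytosol value was below the lowest polysomal value, which largely follows from the pick. The same kind of pick on the higher side gave DONSON, a replication factor, at 3.77 ± 0.35 (SE), SART1, of the tri-snRNP, at 3.49 ± 0.28 (SE) and DCTN1, the large subunit of dynactin, at 3.11 ± 0.23 (SE).

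Fold varied with transcript length and with place in the gradient among the well-counted genes. With the genes cut into 5 equal groups by deposited length, the median fold was 0.64 at 268 to 1757 bases, 0.65 at 1758 to 2631, 0.56 at 2632 to 3720, 0.28 at 3721 to 5425 and 0.06 at 5426 to 28153 bases. The shortest group had 521 higher and 67 lower calls, and the longest 289 higher and 238 lower. Gradient position, the CPM-weighted mean of ribosome number over the fractions with 9 for the last, is an index that rests on the same polysomal libraries. Over 5 equal groups from the lowest to the highest position, the median fold was 0.00, 0.36, 0.52, 0.65 and 0.76. Across the 6089 genes the fold had a Spearman correlation of -0.213 with length and 0.255 with position, as a description over genes, which are not replicates. The long cytoskeletal linkers went against the length trend.

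Set against single fractions, on ratios of CPM plus 1 and so on the library-total scale, gene groups came out differently along the gradient. Small-subunit ribosomal protein mRNAs had a median log2 ratio of Cytosol over fraction of -0.92 for 3 ribosomes (-1.12 to -0.79 over the lines) and 1.00 for 8 to 10 ribosomes (0.52 to 1.24). In between it did not follow the order of the fractions, with 0.49 for 4 ribosomes (0.04 to 0.83), -0.30 for 5 (-0.61 to 0.06) and 0.19 for 7 (0.05 to 0.41). The snoRNA hosts had -2.11 for 3 ribosomes (-2.65 to -1.61) and 1.07 for 8 to 10 (0.42 to 1.71). Both lists were below 0 in every line against 3 ribosomes and above 0 in every line against the heaviest fraction. The snoRNA hosts were below 0 in every line against each of the first 7 fractions, and the small-subunit list was also above 0 in every line against 4 and 7 ribosomes. The well-counted genes as a whole were at 0.30 against monosomes, -0.19 against 7 ribosomes and -0.12 against the last fraction. As means over the lines, ER folding mRNAs lay within 0.12 of 0 against the first 7 fractions and at -1.47 (-1.65 to -1.35) against the last. Single lines ranged between -0.39 and 0.41 for ER folding mRNAs against the first 7. Proteasome mRNAs lay between 0.93 and 1.52 against the first 7 and at -0.53 (-1.13 to -0.03) against the last. Glycolysis mRNAs stayed above 0 throughout, at 0.99 to 1.30 against the first 7 fractions and 0.24 (0.15 to 0.41) against the last. Mitochondrial ribosomal protein mRNAs came down to -0.15 at 8 to 10 ribosomes, with 1.05 against monosomes. Nuclear noncoding RNAs were below 0 against every fraction, from -2.82 for 4 ribosomes to -1.17 for 8 to 10.

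**Figure D4:**
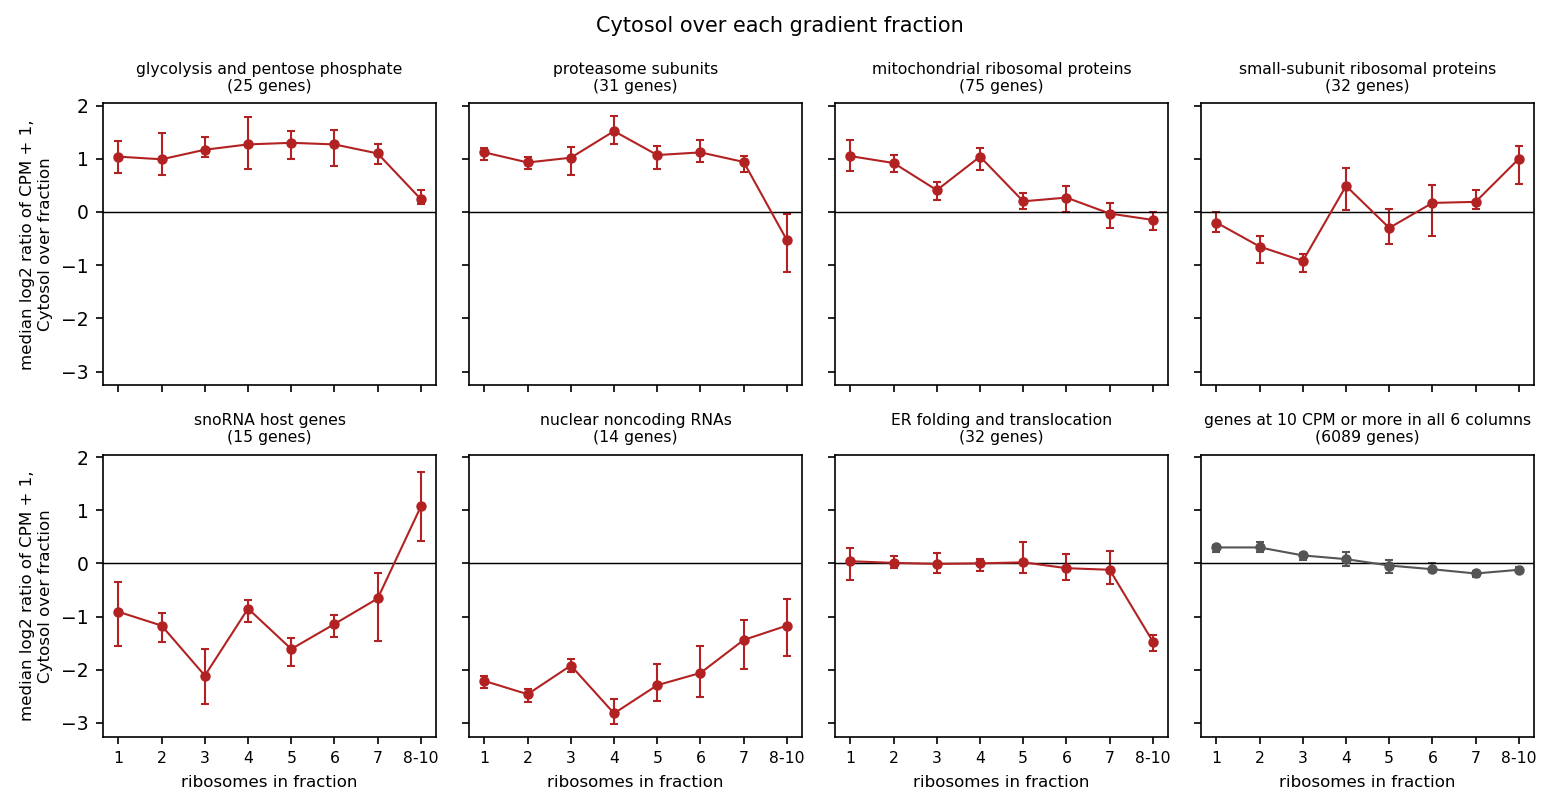
Median log2 ratio of CPM plus 1 in Cytosol over each gradient fraction (mean of 3 lines, bars from the lowest to the highest line) for 7 gene lists and the well-counted genes. The snoRNA hosts are below 0 up to 7 ribosomes and at 1.07 at 8 to 10, small-subunit ribosomal proteins are above 0 at 4 ribosomes (0.49) and highest at 8 to 10 (1.00), and proteasome and ER folding mRNAs fall to -0.53 and -1.47 there.

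Single genes showed what pooling averages. MYH9 had 309, 264 and 130 CPM in monosomes and 1060, 603 and 598 CPM in the fraction of 8 to 10 of S34F, FS and WT, all below its Cytosol values. NPM1 in S34F ranged between 196 CPM in fraction 5 and 1480 CPM in fraction 8 to 10, around 507 CPM in Cytosol. EEF1A1 in FS had 42900 CPM in fraction 2 and 5950 CPM in the last, around 11900 CPM in Cytosol. Over the well-counted genes the Pearson correlation of log2 levels of Cytosol and fraction was highest with 8 to 10 ribosomes in FS (0.655) and WT (0.799), whereas in S34F that fraction gave 0.63, the lowest there, and 3 ribosomes 0.768.

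Ratios of single lines resembled each other with exceptions. Across the 6089 well-counted genes the log2 ratio of CPM correlated at 0.778 between S34F and FS, 0.827 between S34F and WT and 0.815 between FS and WT (Pearson, over genes, a description). Its SD over genes was 0.93 in S34F, 1.20 in FS and 1.04 in WT. A line was counted as apart at a gene when its log2 ratio was at least 1.5 above or below that of both other lines. S34F was higher at 17 genes (0.279%) and lower at 19 (0.312%), FS higher at 3 (0.0493%) and lower at 97 (1.59%), and WT higher at 13 (0.213%) and lower at 4 (0.0657%). With 1 library per line these are values with no test and no replicate check.

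KRT17, a keratin of basal cells, was the gene furthest apart. It had 11.9, 242 and 957 CPM in Cytosol of S34F, FS and WT and 1250, 689 and 929 CPM in polysomal RNA, so the Cytosol library of S34F stood low while its 8 fractions ranged between 1020 and 1410 CPM. The log2 ratios were -6.72 in S34F, -1.51 in FS and 0.04 in WT. GNAS, the stimulatory G protein subunit, had 86.3, 125 and 1200 CPM in Cytosol and 655, 970 and 860 CPM in polysomal RNA, with ratios of -2.92, -2.95 and 0.48. For both genes the lines differed more in Cytosol than in polysomal RNA. RNPEPL1, an aminopeptidase relative, had 29.6, 146 and 278 CPM in Cytosol and 354, 223 and 356 CPM in polysomal RNA, with ratios of -3.58, -0.61 and -0.35. EI24, an ER membrane protein, had 192, 164 and 19.7 CPM in Cytosol and 655, 603 and 499 CPM in polysomal RNA, and ATN1, a transcriptional corepressor, 44.9, 312 and 312 CPM in Cytosol and 202, 165 and 271 CPM in polysomal RNA.

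The 97 genes with a lower ratio in FS were picked on that ratio, so low Cytosol and high polysomal levels in FS largely follow from the rule. In 88 of them FS had the lowest Cytosol level of the lines, and in 94 the highest polysomal level. Of the 17 genes with a higher ratio in S34F, 15 had the highest Cytosol and 17 the lowest polysomal level there. IPO7, a nuclear import receptor, had 30.3 CPM in FS Cytosol, 59.3 in S34F and 36.8 in WT, against 539 CPM in FS polysomal RNA, 172 in S34F and 122 in WT. CNOT7, a deadenylase subunit, had 16.7 CPM in FS Cytosol, 33.5 in S34F and 31.2 in WT, against 223, 63.5 and 83.9 CPM in polysomal RNA of FS, S34F and WT. The 8 fractions of CNOT7 in FS ranged between 29.0 and 512 CPM, wider than the gap between the lines. KXD1 was 1 of 3 genes with a higher ratio in FS, at 146 CPM in FS Cytosol, 55.3 in S34F and 51.1 in WT, and 109, 224 and 188 CPM in polysomal RNA of FS, S34F and WT.

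**Figure D5:**
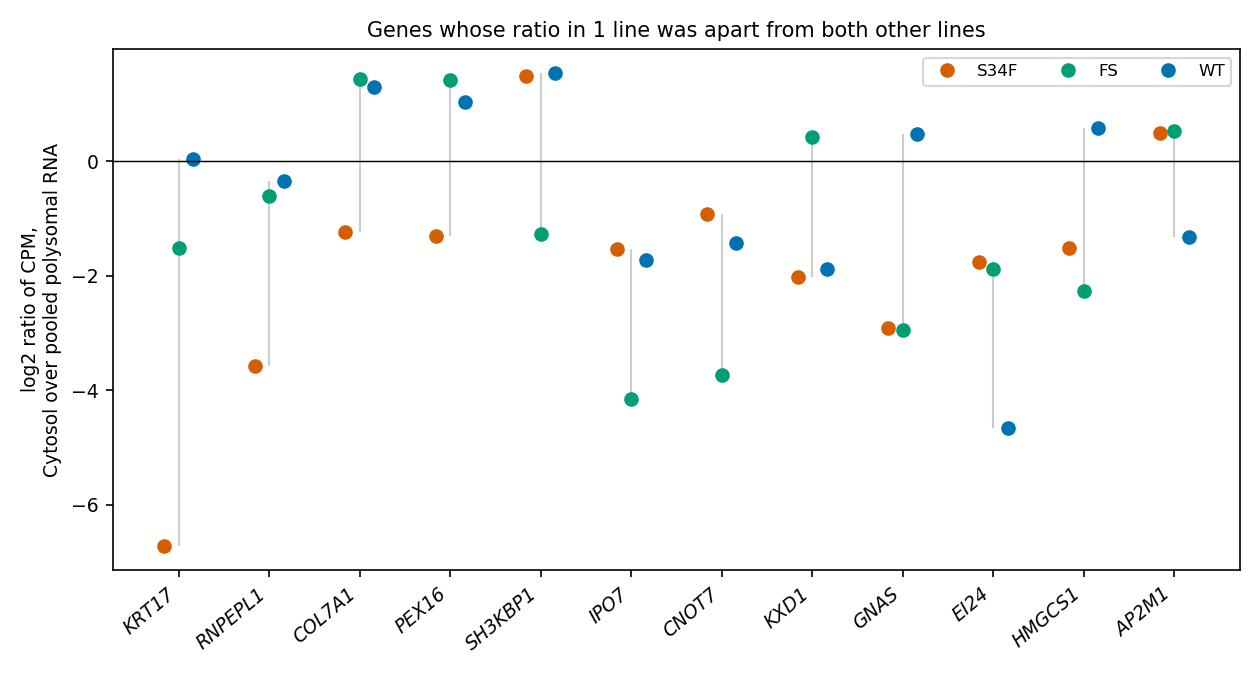
Log2 ratio of CPM in Cytosol over pooled polysomal RNA in each line (points, 1 per line, with a grey line over their range) for 12 genes at which 1 line was at least 1.5 away from both others. KRT17 is at -6.72 in S34F, GNAS at 0.48 in WT and IPO7 at -4.15 in FS.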

How the data were processed

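Expected counts per gene were deposited by the authors in 1 table per Cytosol library and 1 table of all gradient libraries. Values that are not whole made up 31.4% of the Cytosol and 57.5% of the gradient tables. The Cytosol tables also hold RPKM that the authors deposited, whose library total was 3.14 to 3.33 times the summed counts, and which were used only for that check. TopHat is named in the submitters' processing notes. Its version, the counter, the genome build, strandedness and the Cytosol library kit are not given in the sources used here. The labels' protocols give TRIzol extraction and the NEBNext Ultra II kit for the gradient RNA.

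Symbols in both tables (21530) were kept. The remaining symbols took 3.1 to 4.687% of Cytosol and 0.095 to 0.217% of gradient counts. Of the gradient table's symbols 28 are dates, damaged gene names, and these were not named. For each line, the mean CPM of the 8 gradient libraries was turned back into counts at their summed depth (58880814 to 65689671) and rounded. edgeR 4.0.16 (R 4.3.3; filterByExpr, TMM factors 0.82 to 1.254, quasi-likelihood test, Benjamini-Hochberg adjustment, threshold 0.05) fitted line and kind over 6 columns and 17186 genes. The biological coefficient of variation was 51.3%. Line was kept as a block because Cytosol and gradient share the cell line, though the labels do not say that 1 culture gave both. Their deviations from the kind means correlated at 0.14 to 0.426 within lines and at -0.241 to 0.082 across lines. The fit was tested on simulated data. Alternatives used DESeq2 1.42.0 and limma 3.58.1 (pseudocount 1), other filters, scalings and poolings, and each line left out. Chromosomes were matched by symbol to RefSeq (GRCh38.p14), without coordinates.

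The members, gene lists and rules were chosen with earlier results of these data known. Named genes were the 12 largest called increases and decreases at 20 CPM or more in the higher kind, the first 4 called and 2 not called per list, 9 genes always shown, up to 6 per line by the rule for lines, up to 5 listed at 0, and genes said to be chosen later.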

Additional observations from a re-analysis of the deposited data

Results flagged for a closer look

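At 3 genes the log2 ratio of Cytosol over pooled polysomal RNA was at least 1 away from 0 in all lines, one way in 1 line and the other way in both others, with 1 library per line and kind, and the difference was not tested. SH3KBP1, an endocytic adaptor, had a log2 ratio of -1.27 in FS, against 1.49 in S34F and 1.54 in WT. COL7A1, the anchoring fibril collagen, had -1.23 in S34F, against 1.43 in FS and 1.29 in WT. PEX16, a peroxisome biogenesis factor, had -1.30 in S34F, against 1.41 in FS and 1.04 in WT.

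Symbols beginning with HIST, which name histone genes, were outside the shared symbols, with 73 of them in the Cytosol tables, and so entered no comparison. They made up 2.751% of Cytosol counts in S34F, 4.002% in FS and 2.355% in WT, above the limit that a count of 0 allows.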

How the results depend on the processing

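Counts of genes depended mainly on scaling and test, and the causes were not tested. With library totals 1301 genes were higher, and among well-counted genes 1145 were higher and 1302 lower. DESeq2 called 4863 lower, limma-trend 1651 higher and 8620 lower (well counted 1395 and 1601), and a fit over all 27 libraries, where fractions count as samples, 7656 lower (well counted 1239). Without line as the replicate block 5144 genes were lower, in place of 3088 with it. With each line left out, 1673 to 2673 genes were higher and 2439 to 3131 lower, and 1501 to 2306 and 397 to 690 of the well-counted genes. The remaining filters and poolings kept both counts over all genes within 1.5 times.

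Counts of genes apart in a line moved with the pooling. Raw sums gave 6 higher in FS and 20 higher in WT. Fractions of 5 ribosomes and more gave 11 higher and 34 lower in S34F, 7 higher in FS, 20 higher in WT and 7 lower in WT. Monosomes with fractions of 2 to 4 ribosomes gave 37 higher in S34F and 7 higher in FS.

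Folds of 6 named genes changed sign where the fold was called in the fit given in the report or in the alternative. With the heavy fractions RPS2 was at 0.93 and SNHG16 at 0.01, with the light ones EEF1G was at -0.71, MRPS16 at 0.72 and RMRP at -0.49, and the log2 fold of CALR, listed at 0 in FS Cytosol, was 1.14 without FS and -4.42 without WT. Folds of genes not called in either fit also turned negative with library totals, EEF1A1 at -0.04, RPL3 at -0.17 and ATF4 at -0.45 among them. Of the 176 named genes called, 169 kept direction and call with library totals, 176 with DESeq2, 169 without the block and 166 without WT. Without the block the calls of NPIPB4, SMOX, FTL, IL1A, CXCL2, TNRC6A and EI24 were lost. Genes near 3 counts in Cytosol were limited by depth.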
